A study of Mus musculus with 14 samples.

Results

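Cytosolic ribosomal protein genes were described in natural killer (NK) cells, the innate lymphocytes that kill tumour cells, sorted from mouse spleens and from mammary tumours. Members were the genes of the NK count table whose symbols begin with Rpl or Rps and a digit or p. Symbols containing -ps (pseudogenes) and those beginning with Rps6k (kinases) were left out. This gave 80 of 10210 listed genes. Rps2 is described apart because its counts jumped between libraries of 1 group, which leaves 79 genes, of which 76 passed the filter on low counts. Of 79 genes for core ribosomal proteins written from general knowledge, 75 were listed and 72 of them fell under the symbol rule. Rpl21, Rpl26, Rpl30 and Rps20 have no row in the NK table and have no value here. The other 8 members are paralogs of core genes or bear the name only (Rpl22l1, Rpl32l, Rpl36al, Rpl37rt, Rpl7l1, Rps19bp1, Rps27l and Rps4l).

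All mice were BALB/c, and the labels give an age of 8 weeks (for the females that received tumour cells, the age at injection). The study names 3 NK groups. Healthy spleen NK cells came from mice without a tumour (n = 3 libraries). Tumour-bearing spleen NK cells came from mice that carried 4T1-GFP, a mouse mammary carcinoma line that models triple-negative breast cancer and here expresses green fluorescent protein (n = 4). The females had received 100000 cells in the mammary fat pad. Tumour NK cells came from such tumours (n = 4). Every library was polyA RNA read from 3′ ends, and all NK cells were enriched magnetically and sorted as NKp46 positive and CD3 negative, among other markers. The tumours, not the spleens, were digested with collagenase and DNase at 37 °C. A lysis step of 5 minutes is given for the spleens and not for the tumours. Tissue and handling therefore cannot be told apart. The series calls the replicates independent. It does not say whether a spleen and a tumour came from 1 mouse, so p-values measure the spread between these libraries.

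A ribosome has a large and a small subunit, and each holds its own set of proteins around ribosomal RNA. Cells need most of these proteins in equal numbers. Many mRNAs of ribosomal proteins start with a run of pyrimidines, the 5′ terminal oligopyrimidine (TOP) tract. Through this tract the kinase mTORC1 and the binding protein Larp1 control translation. Some ribosomal proteins have further roles: free Rpl5, Rpl11 and Rpl23 bind Mdm2, the ligase that degrades p53. In lymphocytes, ribosome production is known to increase on activation.

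The TOP tract is shown for 8 members because it is the sequence feature for which these genes are best known. The windows hold 15 bases before and 15 from the annotated start, from RefSeq on build GRCm38.p6, and capitals mark a tract of at least 5 C or T letters that begins with C within 5 bases of that start. Rpl12 (chr2:32961697-32961726, plus strand), Rps23 (chr13:90923107-90923136, plus), Rpl39 (chrX:37085208-37085237, minus), Rpl22l1 (chr3:28805493-28805522, plus) and Rpl13a (chr7:45128731-45128760, minus) had a tract. Rpl4 (chr9:64173372-64173401, plus), Rps3 (chr7:99483695-99483724, minus) and Rplp0 (chr5:115559452-115559481, plus) had none at the annotated start.
Rpl12: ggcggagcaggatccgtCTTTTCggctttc
Rps23: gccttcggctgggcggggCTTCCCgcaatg
Rpl39: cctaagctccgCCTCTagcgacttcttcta
Rpl22l1: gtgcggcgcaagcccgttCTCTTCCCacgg
Rpl13a: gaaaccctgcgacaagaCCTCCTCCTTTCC
Rpl4: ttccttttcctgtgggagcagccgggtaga
Rps3: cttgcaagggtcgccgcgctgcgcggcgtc
Rplp0: gtcttcgggtttcgaggaccgcctggttct
Of the 62 members with a RefSeq start, 30 (48.4%) had such a tract, against 24.2% of 8205 genes of the NK table and 21.2% of 27025 RefSeq symbols. An annotated start can lie some bases from the start a cell uses, so a window without the tract says only that these letters are not at the annotated position.

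Ribosomal protein genes took a sizeable share of every NK library. In healthy spleen NK cells the 79 genes held 10.7%, 13.9% and 15.8% of counts in replicates 1 to 3. Replicate 1, the lowest, had the smallest total of all 11 libraries (559688 counts), and its exact Clopper-Pearson interval at 95%, for counting error only, ran from 10.6% to 10.8%. In tumour-bearing spleen NK cells the shares were 14.6%, 12.6%, 14.5% and 16.0%, and in tumour NK cells 16.2%, 14.4%, 17.2% and 16.0%. The means were 13.5% ± 2.59 (SD, n = 3), 14.4% ± 1.40 (SD, n = 4) and 15.9% ± 1.12 (SD, n = 4). The groups overlapped in this share. In bulk samples, fewer cells of a type and less RNA per cell cannot be told apart.

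The balance between the subunits separated the groups more than the share did. The ratio of summed counts of genes named Rpl (P stalk and paralogs included) to genes named Rps lay between 1.28 and 1.30 in all 7 spleen libraries. In tumour NK replicates 1 to 4 it was 1.37, 1.42, 1.38 and 1.38, all above every spleen library. The tumour mean was 1.39 ± 0.0256 (SD, n = 4), against 1.29 ± 0.00954 (SD, n = 3) in healthy and 1.29 ± 0.00929 (SD, n = 4) in tumour-bearing spleens. The separation held when each of the 79 genes was left out in turn, and without Rpl39 and Rpl22l1 (1.26 to 1.30 in spleens, 1.36 to 1.40 in tumours). Without the 21 genes that the tests called higher against healthy spleens, the ratio was 1.08 to 1.12 in spleens and 1.13 to 1.21 in tumours. These ratios describe the libraries and carry no test.

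**Figure D1:**
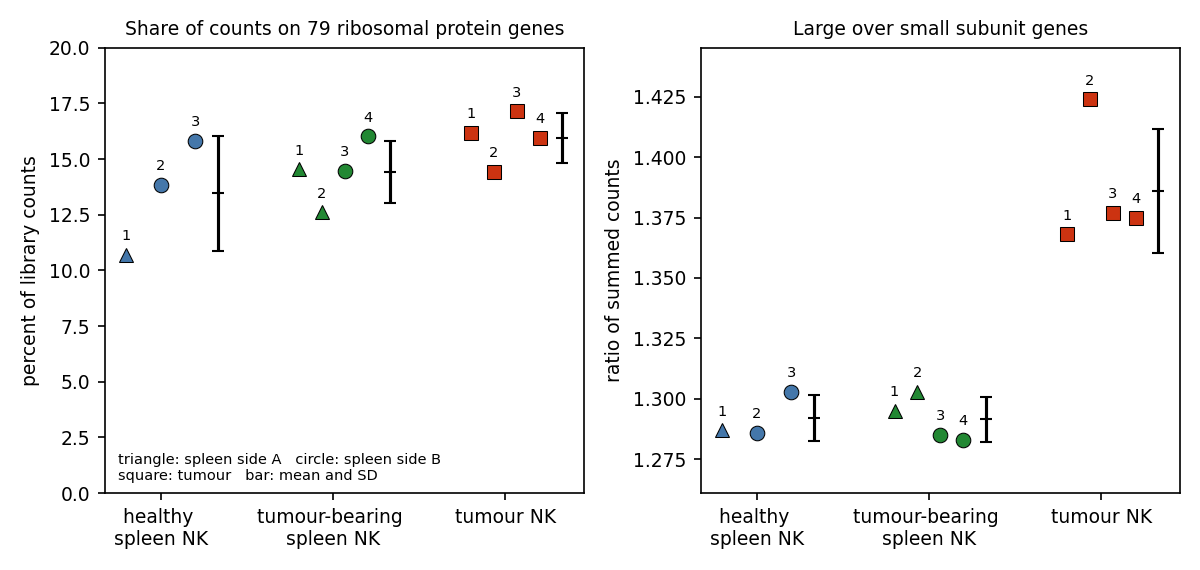
Share of library counts on the 79 ribosomal protein genes (left) and ratio of large to small subunit counts (right, axis not from zero) per NK library, by group. Triangles mark healthy replicate 1 and tumour-bearing replicates 1 and 2 (side A of a split of the spleens along principal component 2), circles the other spleens and squares tumours. The numbers are replicates, and black bars give the group mean and SD. The share overlaps between groups, whereas the 4 tumour libraries lie above all 7 spleen libraries in the ratio.

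Tests used edgeR's quasi-likelihood model on all 11 libraries, and a gene was called where the p-value, adjusted by Benjamini-Hochberg across the 8471 genes that passed the filter, was below 0.05. Against tumour-bearing spleen NK cells, 13 of 76 members (17.1%) were called higher in tumour NK cells and 1 was called lower. Over all genes tested 15.8% were called higher and 13.2% lower, so the share of higher calls among ribosomal protein genes was near the background. The median log2 fold change of the members was 0.26, against 0.0014 over all genes, and 65 of 76 were positive. In 19 members all tumour libraries lay above all libraries of tumour-bearing spleens (25%, against 16.5% over all genes), and in 0 members were they all below (against 13.3%). The count of higher members fell to 8 (10.5%) without tumour-bearing spleen replicate 2, tumour replicate 1 or tumour replicate 4, where 15%, 13.1% and 13.4% of all genes were called higher. DESeq2 called 18 members higher (23.7%, against 14.3% of all genes). The median was 0.39 against side A and 0.07 against side B of a split among the spleen libraries that is described with Rpl39.

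Against healthy spleen NK cells, 21 of 76 members (27.6%) were called higher and 0 lower, over a background of 16.5% higher and 14% lower. By DESeq2 the count of lower members was also 0. The median log2 fold change was 0.43, against 0.02 over all genes, and 71 of 76 were positive. All tumour libraries lay above all healthy spleens for 26 members (34.2%, against 18.5% over all genes) and below for 0 (against 16.3%). The 2 comparisons share the tumour libraries, so they are not independent: the 13 genes called higher against tumour-bearing spleens are among the 21. The count rested on single healthy libraries: it was 13 without healthy replicate 1 (background 18%), 13 without replicate 2 (12.2% of all genes) and 40 without replicate 3 (background 13.3%). The median was 0.20 without healthy replicate 1 and 0.61 without replicate 3. The 5 scalings tried were TMM, RLE, upper quartile, library totals, and TMM without the ribosomal protein genes. Under all of them, 8 members were called higher against tumour-bearing spleens and 14 against healthy spleens. Under single scalings, 12.1% to 15.9% and 11.6% to 16.7% of all genes were called higher. The share of all genes called under all 5 was not computed. With library totals the median of all genes was -0.12 and -0.18, and the members' median stood 0.26 and 0.42 above it.

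Between the spleens of tumour-bearing and healthy mice, edgeR's test called 0 of 76 members in either direction (backgrounds 1.23% higher and 0.354% lower), and DESeq2 also called 0. At an unadjusted p under 0.05 there were 3 of 76, against 951 of 8471 genes. The median log2 fold change was 0.17, against -0.0042 over all genes, and 64 of 76 were positive. Without healthy replicate 1 the median was -0.0129 and 35 of 76 were positive. With the side of the spleen split as a block, 9 members were called higher (background 5.35%). Rps27l and Rpl7l1 were higher in all libraries of tumour-bearing spleens (2.63% of members, against 6.52% of genes), and in 0 members did the groups separate the other way (against 5.71%). Their log2 changes were 0.39 (SE 0.155, adjusted p = 0.297) and 0.24 (SE 0.182, adjusted p = 0.713) by edgeR's test, neither past the threshold.

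**Figure D2:**
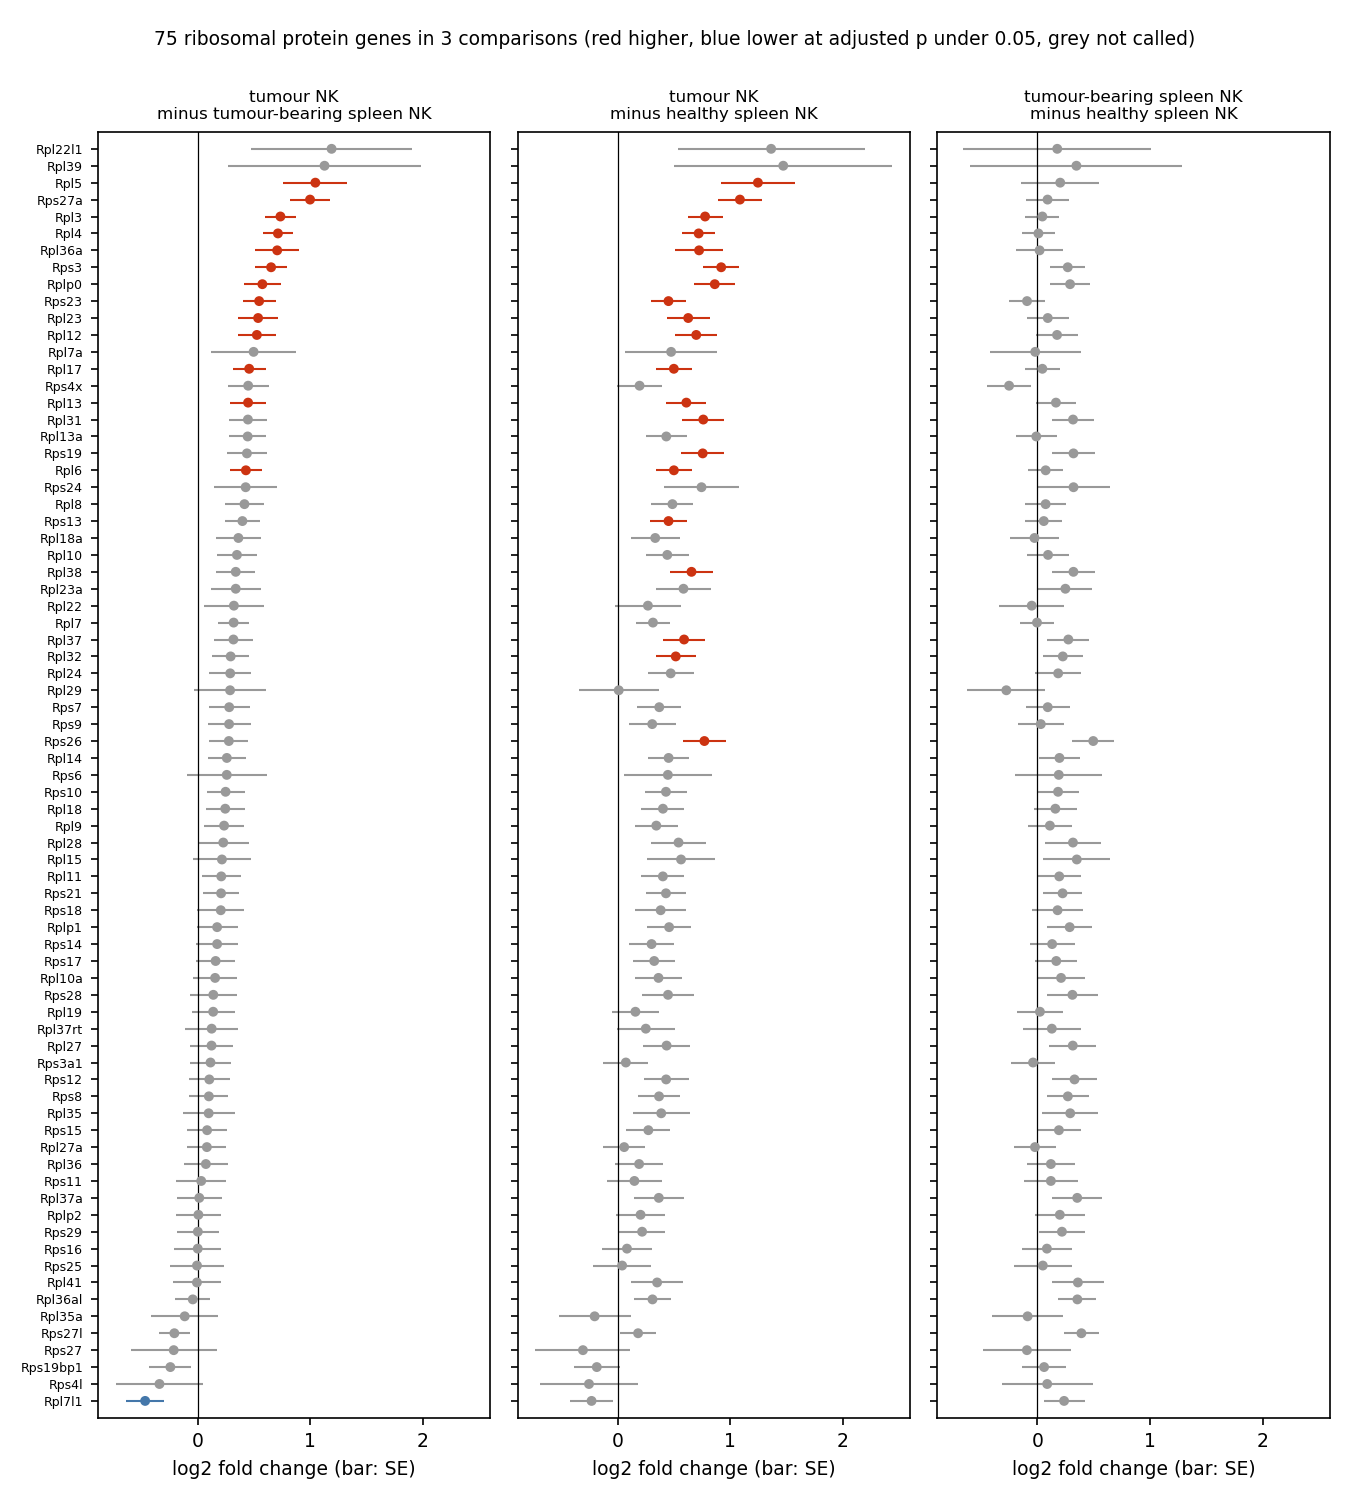
Log2 fold changes of 75 of the 76 tested ribosomal protein genes (rows, in the order of the left panel) in the 3 comparisons. Bars give the standard error, red marks genes called higher, blue the 1 called lower and grey those not called. In all 3 panels most points lie right of zero, and in the right panel no gene is called.

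By structural role, the P stalk, the flexible arm of the large subunit that recruits elongation factors, had 1 of 3 members called higher in each tumour comparison. The backgrounds over all genes were 15.8% higher and 13.2% lower against tumour-bearing spleens, and 16.5% and 14% against healthy spleens. Of 39 other large subunit genes, 9 (23.1%) were called higher against tumour-bearing spleens and 13 (33.3%) against healthy spleens. The medians of the 39 log2 fold changes were 0.32 and 0.47. Of 27 small subunit genes, 3 (11.1%) were called higher against tumour-bearing spleens (median 0.21) and 7 (25.9%) against healthy spleens (0.38). Of 7 tested paralogs and name-only genes, 0 were called higher in either, and 1 was called lower against tumour-bearing spleens (median -0.21).

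The P stalk anchor Rplp0 was 851, 1272 and 1356 CPM (counts scaled to a common TMM-adjusted total) in healthy spleens, 1543, 1151, 1427 and 1561 in tumour-bearing spleens, and 2156, 1774, 2411 and 2108 in tumours. Every tumour library lay above every spleen library. Its fitted log2 change was 0.57 (SE 0.165, adjusted p = 0.0134 by edgeR) against tumour-bearing spleens and 0.86 (SE 0.182, adjusted p = 0.00128) against healthy spleens. Rplp1 and Rplp2, the acidic stalk proteins that bind Rplp0 as dimers, were not called. Their log2 changes against tumour-bearing spleens were 0.17 (SE 0.182) and 0.00 (SE 0.203).

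Among large subunit genes, Rpl3, a core protein near the peptidyl transferase centre, was 854, 1139 and 1227 CPM in healthy spleens, 1085, 1012, 1199 and 1135 in tumour-bearing spleens, and 1850, 1933, 1851 and 1735 in tumours. The lowest tumour library was well above the highest spleen. Its log2 change against tumour-bearing spleens was 0.73 (SE 0.141, adjusted p = 0.000574 by edgeR's test), and against healthy spleens 0.78 (SE 0.155, adjusted p = 0.000753). Rpl4, which lines the exit tunnel, was 2344, 2309 and 2299 CPM in healthy spleens, 2530, 2345, 2297 and 2149 in tumour-bearing spleens, and 3512, 3950, 4042 and 3761 in tumours. The 2 spleen groups overlapped, and all tumour values were higher. Against tumour-bearing spleens its log2 change was 0.71 (SE 0.134, adjusted p = 0.000449 by edgeR).

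Rpl5, part of the 5S particle and a binder of Mdm2, had few counts (8 to 39 per library). It was 12.3, 10.7 and 9.08 CPM in healthy spleens, 13.0, 19.5, 7.72 and 7.96 in tumour-bearing spleens, and 23.8, 31.9, 23.5 and 22.8 in tumours. No tumour library overlapped a spleen library. Its log2 change was 1.04 (SE 0.283, adjusted p = 0.00902 by edgeR) against tumour-bearing spleens and 1.246 (SE 0.332, adjusted p = 0.00753) against healthy spleens. Its partner Rpl11 was not called in either comparison (0.21, SE 0.176, and 0.40, SE 0.191). Rpl11 lay far higher, at means of 1702 CPM in healthy spleens, 1950 in tumour-bearing spleens and 2251 in tumours. A difference between the changes of Rpl5 and Rpl11 was not tested. Rpl23, which also binds Mdm2, was called higher in both (0.54, SE 0.174, adjusted p = 0.0264, and 0.63, SE 0.191, adjusted p = 0.0175 by edgeR), and its calls were lost in 8 of 21 and 3 of 20 alternative settings, among them the fits without tumour replicate 1.

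Rpl36a, a small zinc-binding protein of the large subunit, was 428, 726 and 629 CPM in healthy spleens, 694, 549, 621 and 557 in tumour-bearing spleens, and 1283, 738, 747 and 1174 in tumours. Tumour replicates 1 and 4 were high and replicates 2 and 3 lay just above the highest spleen library. Its log2 change was 0.70 (SE 0.195, adjusted p = 0.0109 by edgeR), and without tumour replicate 1 the call was lost. Rpl13a, which moonlights in interferon-regulated translational control, was 2301, 3222 and 3895 CPM in healthy spleens, 3037, 2613, 3156 and 3668 in tumour-bearing spleens, and 4355, 3888, 4467 and 4239 in tumours. Its log2 change of 0.44 (SE 0.167, adjusted p = 0.0536 by edgeR) missed the threshold.

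Among small subunit genes, Rps27a encodes ubiquitin fused to a ribosomal protein. It was 738, 668 and 731 CPM in healthy spleens, 987, 872, 594 and 578 in tumour-bearing spleens, and 1787, 1324, 1259 and 1675 in tumours. The tumour libraries were apart from all spleens, and replicates 1 and 2 of the tumour-bearing spleens were above the other five spleen libraries. Its log2 change was 1.00 (SE 0.178, adjusted p = 0.000276 by edgeR) and 1.09 (SE 0.197, adjusted p = 0.000306) against tumour-bearing and healthy spleens.

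Rps3, which sits at the mRNA entry site and also acts in DNA repair, was 462, 546 and 644 CPM in healthy spleens, 752, 659, 575 and 675 in tumour-bearing spleens, and 1085, 901, 1179 and 1007 in tumours, with no overlap of tumours and spleens. The log2 change of Rps3 was 0.65 (SE 0.144, adjusted p = 0.00196 by edgeR) against tumour-bearing spleens and 0.92 (SE 0.159, adjusted p = 0.000189) against healthy spleens. Rps6, the substrate of S6 kinases, was 137, 518 and 584 CPM in healthy spleens, 436, 382, 536 and 556 in tumour-bearing spleens, and 662, 491, 466 and 664 in tumours. Healthy replicate 1 stood below all others. Its log2 changes of 0.26 (SE 0.356) and 0.45 (SE 0.389) did not pass the test.

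The other 6 large and small subunit genes called higher in both tumour comparisons (Rpl12, Rpl13, Rpl17, Rpl23, Rpl6 and Rps23) had log2 changes from 0.43 (Rpl6) to 0.54 (Rps23) against tumour-bearing spleens. Rpl12, which with the P stalk forms the site where GTPase factors bind, was 1553, 2252 and 2759 CPM in healthy spleens, 2517, 2003, 2543 and 2821 in tumour-bearing spleens, and 3491, 3342, 3705 and 3676 in tumours, with no overlap of tumours and spleens. Its log2 change was 0.52 (SE 0.170, adjusted p = 0.0256 by edgeR) against tumour-bearing spleens.

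Further genes, among them Rpl31, Rpl32, Rpl37, Rpl38, Rps13, Rps19 and Rps26, were called against healthy spleens and not against tumour-bearing spleens, and the difference between these comparisons was not tested. Of these Rps26, which contacts mRNA at the exit site, was 1489, 1981 and 2367 CPM in healthy spleens, 2990, 2210, 2572 and 3209 in tumour-bearing spleens, and 3454, 2663, 3719 and 3447 in tumours. The tumour range overlapped that of tumour-bearing spleens and not that of healthy spleens. Its log2 change was 0.77 (SE 0.190, adjusted p = 0.00431 by edgeR) against healthy spleens, 0.28 (SE 0.172, adjusted p = 0.248) against tumour-bearing spleens, and 0.50 (SE 0.188, adjusted p = 0.265) between the spleens. Rps19, whose human counterpart is mutated in Diamond-Blackfan anaemia, was 1361, 1770 and 2377 CPM in healthy spleens, 2354, 1909, 2195 and 2717 in tumour-bearing spleens, and 2917, 2743, 3685 and 3061 in tumours. Its changes were 0.76 (SE 0.192, adjusted p = 0.00547) and 0.44 (SE 0.175, adjusted p = 0.0689). Rpl12, Rps26 and Rps19 were singled out after their values were seen.

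Most paralogs were not called. Rpl7l1, a paralog of Rpl7, was 44.7, 43.3 and 38.8 CPM in healthy spleens, 51.8, 46.9, 54.1 and 45.6 in tumour-bearing spleens, and 34.4, 47.8, 31.3 and 33.3 in tumours. Tumour replicate 2 lay within the range of the spleens. Its log2 change against tumour-bearing spleens was -0.47 (SE 0.171, adjusted p = 0.0463 by edgeR), and the call was lost in 10 of 21 alternative settings. Rpl7 itself was 0.32 (SE 0.139, adjusted p = 0.0939). Rpl36al, a paralog of Rpl36a, had a log2 change of -0.05 (SE 0.154), Rps27l -0.21 (SE 0.141), Rps4l -0.34 (SE 0.385) and Rps19bp1, named for binding Rps19, -0.24 (SE 0.186). The difference between a paralog and its parent was not tested. The parents Rps4x, Rpl22 and Rps27 were also not called, with log2 changes of 0.45 (SE 0.181), 0.32 (SE 0.263) and -0.21 (SE 0.381).

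Rpl39 and Rpl22l1 followed another pattern. Rpl39, a small protein of the exit tunnel, was 865, 111 and 134 CPM in healthy spleens, 946, 612, 140 and 122 in tumour-bearing spleens, and 751, 1043, 1353 and 810 in tumours. Rpl22l1, a paralog of the RNA-binding Rpl22, was 208, 34.2 and 42.1 CPM in healthy spleens, 173, 135, 39.6 and 39.8 in tumour-bearing spleens, and 137, 259, 342 and 135 in tumours. In both genes the same 3 spleen libraries, 1 healthy and 2 tumour-bearing, lay with the tumours, and the other four lay far lower.

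This split was present in the rest of the transcriptome. On principal component 2 of the genes that are not ribosomal (15.2% of variance), the spleens were split by the sign of the score. Healthy replicate 1 with tumour-bearing replicates 1 and 2 formed side A, and the other spleens side B. Healthy replicate 1, the library of lowest total, scored 47.1, tumour-bearing replicates 1 and 2 13.4 and 12.3, and side B -6.3 to -23.9. Tumour replicates 1 to 4 scored -10.55, 8.302, -1.907 and -13.76, so they fell on both signs. Side A was 6.38-fold higher for Rpl39 (mean 807 against 127 CPM) and 4.41-fold higher for Rpl22l1 (172 against 38.9). Rpl5 was 1.69-fold, Rpl15 1.504-fold and Rps27a 1.35-fold higher there. Over all 76 members the median log2 difference of side A minus side B was -0.37, against -0.04 over all genes. Of members, 2 were over 2-fold higher in side A and 0 over 2-fold lower, while 524 and 31 of 8471 genes were. The sides were defined from the data, and are not groups of the study. The differences between the sides are given with no test. The labels name no batch.

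Against tumour-bearing spleens of side A alone (2 libraries), the log2 change was 0.35 for Rpl39 and 0.52 for Rpl22l1, and against those of side B (2 libraries) it was 2.88 and 2.43. These values restate the split, since both genes were picked for it, and are given as a description. Over all libraries the changes were 1.13 (SE 0.856, adjusted p = 0.369 by edgeR) and 1.19 (SE 0.719, adjusted p = 0.261), with no call. Rpl5 was 0.58 against side A, where its call was lost (adjusted p = 0.155), and 1.62 against side B. Rps27a was called against both sides (0.70 and 1.33), as was Rpl3 (0.81 and 0.62).

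Over the members, 27 were called higher against side A (background 13.3%). Against side B, 14 were called higher (background 22.2%) and 2 lower (1700 of 8544 genes). The 11 members called higher against both sides were Rpl12, Rpl17, Rpl23, Rpl3, Rpl31, Rpl36a, Rpl4, Rplp0, Rps23, Rps3 and Rps27a. The share of all genes called against both sides was not computed. In the comparison of spleens with the side as a block, 9 members were called higher (background 5.35%): Rpl27, Rpl28, Rpl31, Rpl35, Rpl36al, Rpl37a, Rpl41, Rps12 and Rps26, with log2 changes from 0.39 (SE 0.127, adjusted p = 0.0494) to 0.56 (SE 0.133, adjusted p = 0.00514) by edgeR. What the split is was not tested.

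**Figure D3:**
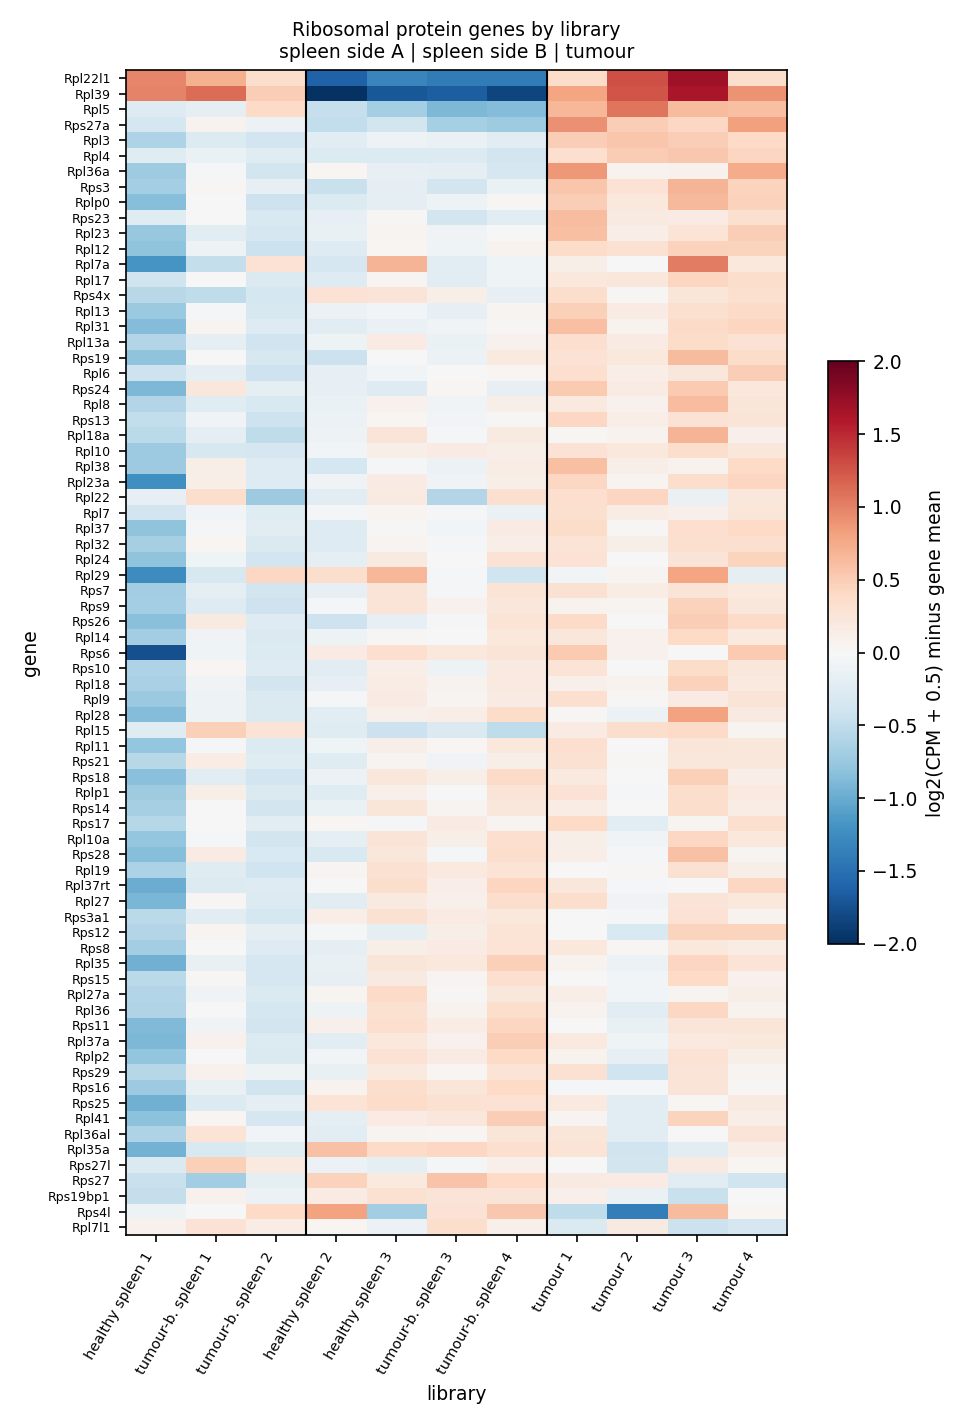
Log2(CPM + 0.5) of 75 of the 76 tested ribosomal protein genes minus each gene's mean, by library. Vertical lines separate spleen side A, spleen side B and tumour. Rpl39 and Rpl22l1 at the top are red in side A and in tumours and blue in side B, and healthy spleen replicate 1 is blue for most genes.

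Much of the spread among the members was common to them. Over 69 members with a mean of at least 50 counts, the median within-group SD of log2 CPM was 0.28 on TMM scaling and 0.13 when libraries were scaled on the summed ribosomal protein counts, whereas over 4316 genes it was 0.23 and 0.29. After that scaling Rpl39 (SD 1.44) and Rpl22l1 (SD 1.26) had the largest spread, followed by Rpl7a (0.45) and Rps6 (0.44). On the ribosomal scaling, edgeR's test against tumour-bearing spleens called 3 members higher (background 7.05%): Rpl3 by 0.47, Rplp0 by 0.31 and Rpl12 by 0.27 on the log2 scale. It called Rps29 (-0.28) and Rpl7l1 (-0.73) lower (background 22.1%). Against healthy spleens 6 members were called higher (background 6.76%), among them Rplp0 and Rpl12, and 3 lower (2588 of 8471 genes). Rpl3, Rps29 and Rpl7l1 were not called there. As a share of ribosomal counts, with both spleen groups pooled, Rpl4 was 1.77% in spleens and 2.24% in tumours. Rpl12 was 1.72% and 2.08%, Rps29 4.10% and 3.44%, and Rpl41 3.26% and 2.87%. Rpl4 (adjusted p = 0.0639 by edgeR) and Rpl41 (adjusted p = 0.0615) were not called against tumour-bearing spleens on the ribosomal scaling. This scaling was chosen after seeing the data.

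**Figure D4:**
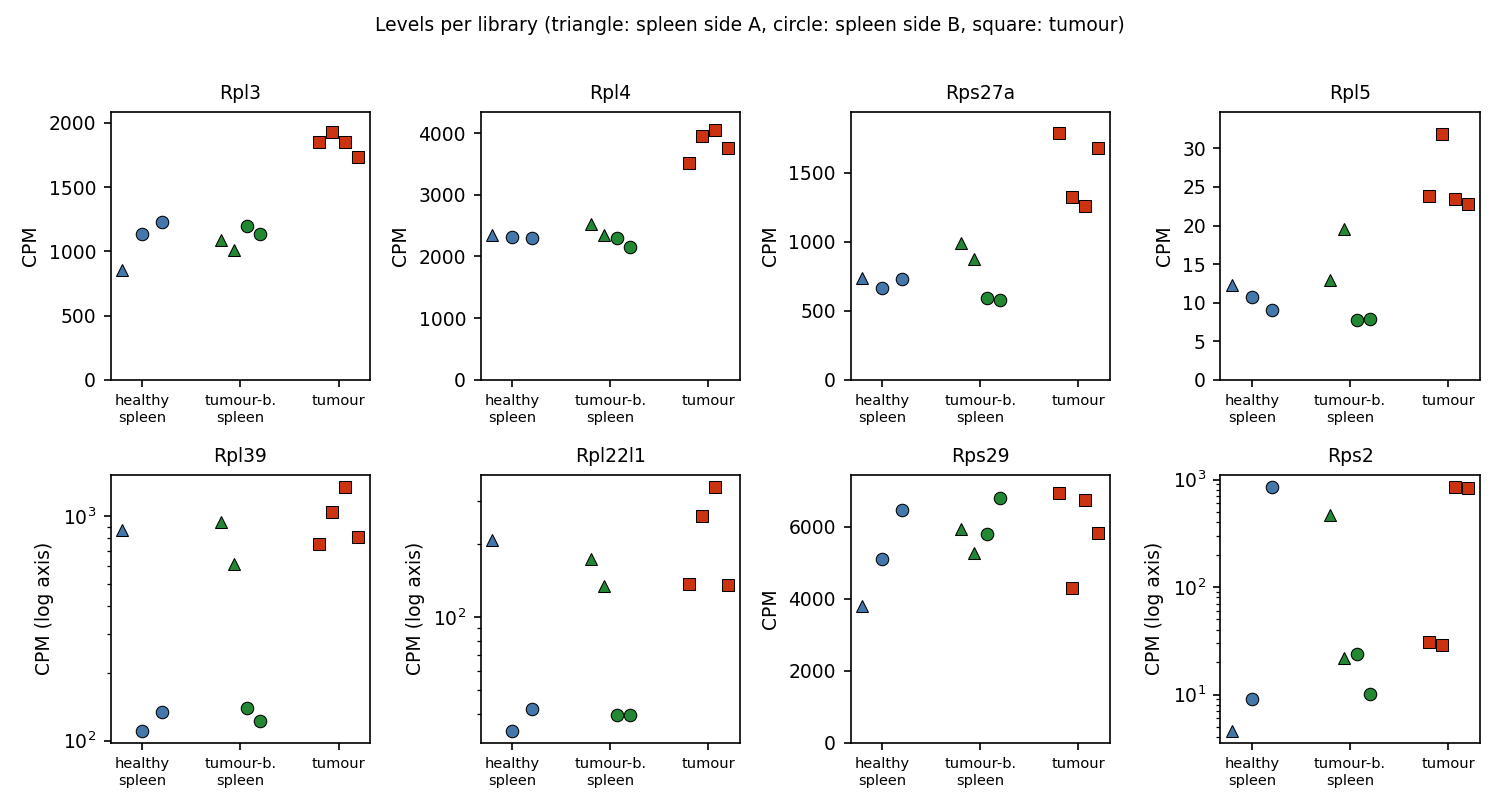
CPM of 8 ribosomal protein genes per library, by group (log axis where marked). Rpl3, Rpl4, Rps27a and Rpl5 lie apart in tumours, Rpl39 and Rpl22l1 split the spleens, and Rps2 lies either between 4.62 and 31.2 or between 464 and 856 CPM in every group.

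Rps2 counts were all or none. They were 3, 17 and 1031 in healthy spleen replicates 1 to 3, 609, 39, 46 and 14 in tumour-bearing spleens, and 38, 20, 1423 and 887 in tumours. In each group 1 or 2 libraries stood at 609 counts or more, and the rest lay between 3 and 46. Among 2558 genes with a mean of at least 100 counts, Rps2 alone had a ratio of more than 20-fold between libraries in all 3 groups (28.6 to 152-fold). Its log2 change against tumour-bearing spleens was 1.81 (SE 1.81, adjusted p = 0.503 by edgeR), with no call. In the sCAF libraries, which came from a tumour fibroblast subset and belong to no NK group, Rps2 had 49, 23 and 3093 counts. Of 50-base windows of the last 300 bases of its transcript, 78.1% are also in other transcripts, all 51 of them pseudogenes. Whether counting split its reads among these copies was not tested.

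The same shared ends concern other members. Of the 80 genes, 56 shared at least one such window, 36 shared at least 50% of windows and 24 none. Of the 23 tested genes with none, 6 were called higher against tumour-bearing spleens (Rpl12, Rpl4, Rpl5, Rpl6, Rplp0 and Rps3). Among the 35 that shared at least 50%, 5 were called higher. The background over all genes was 15.8%. Rpl4, Rpl5, Rps3 and Rplp0 have unshared ends, whereas Rpl3 (76.5%) and Rps27a (86.9%) do not. Rpl15, Rpl22, Rpl29, Rpl5, Rps24, Rps27 and Rps4l had means under 50 counts. Rpl34, Rpl32l and Rps15a failed the filter, with 1 to 8 counts, and their values were not tested. By start sequence, 2 of 26 tested members with a TOP tract were called higher against tumour-bearing spleens and 8 of 32 without (background 15.8%). The median log2 fold changes were 0.25 and 0.26.

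Genes that work with the ribosome were taken from lists written from general knowledge. Of the ribosome parts whose symbols the rule misses, Rack1, a scaffold on the small subunit, was called higher (0.44, SE 0.149, adjusted p = 0.0327 by edgeR against tumour-bearing spleens), 1 of 4 listed. Rpsa and Fau were not called. Of 16 other TOP mRNAs of translation, 9 were called higher and 0 lower against tumour-bearing spleens (median log2 change 0.55) and 10 higher against healthy spleens (0.58). Over all genes tested, 15.8% were called higher and 13.2% lower in the first comparison, and 16.5% and 14% in the second. Snhg1 and Gas5, host genes of small nucleolar RNAs, had changes of 1.67 (SE 0.277, adjusted p = 0.000644) and 1.10 (SE 0.139, adjusted p = 5.24e-06), and Hnrnpa1, a splicing regulator, 1.09 (SE 0.204, adjusted p = 0.000528).

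Of 18 tested genes of mTORC1 and the S6 kinases, 4 were called higher and 1 lower against tumour-bearing spleens, and 5 and 1 against healthy spleens, over the same backgrounds of 15.8% and 13.2%, and of 16.5% and 14%. The called genes did not all act in 1 direction on the pathway. Ddit4, an mTORC1 inhibitor, was 1.43 (SE 0.271, adjusted p = 0.00191 by edgeR), Sesn2, which restrains mTORC1, 0.97 (SE 0.336, adjusted p = 0.0355), and Larp1 0.88 (SE 0.195, adjusted p = 0.00201). Myc, which drives ribosome production, was 0.83 (SE 0.206, adjusted p = 0.00473), and the kinase Rps6ka1 was lower (-0.53, SE 0.140, adjusted p = 0.00786). Against healthy spleens the mTORC1 activator Rheb was called higher (0.65, SE 0.153, adjusted p = 0.00291) and the inhibitor Tsc2 lower (-0.72, SE 0.201, adjusted p = 0.0105). Myc, Rps6ka1, Rheb and Tsc2 were added after their values were seen. Of 8 tested genes of p53 and Mdm2, 1 was called higher and 0 lower against tumour-bearing spleens, and 1 and 1 against healthy spleens. The backgrounds are those given above. Against tumour-bearing spleens Cdkn1a, a p53 target and cell cycle inhibitor, rose by 4.17 (SE 0.154, adjusted p = 7.29e-13 by edgeR), from a mean of 26.3 to 480 CPM. Mdm2 and Trp53 did not pass the test (0.15, SE 0.131, and 0.12, SE 0.206). Nor did Bax (-0.11), Ccng1 (-0.18), Zmat3 (-0.10), Sesn1 (0.03) and Pmaip1 (0.58). No gene of these lists was called between the spleens.

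The sorted cell type was checked with marker lists. The NK list (9 of 10 listed) held 2.55% to 2.94% of counts in spleens and 1.70% to 2.06% in tumours. Macrophage and monocyte markers (8 of 10 listed) held 0.00583% to 0.00983% in spleens and 0.00601% to 0.0237% in tumours, and neutrophil markers (4 of 8) up to 0.00143% in spleens and 0.00555% to 0.0153% in tumours. T cell markers held 0.00500% to 0.0144% in spleens and 0.00592% to 0.00981% in tumours. The 1 endothelial marker listed of 5 held 0.00482% to 0.00930% in spleens and 0.0131% to 0.0185% in tumours, and the 1 carcinoma marker listed of 7 up to 0.000102% and 0.000109% to 0.000685%. The NK list (lower in tumours), the neutrophil markers and the endothelial marker separated tumours from all spleens. The ranges of the carcinoma marker nearly met, at shares that amount to very few counts. Fibroblast markers (2 of 7 listed) and the 1 B cell marker listed of 5 held at most 0.00198% and 0.00107% of any library. No dendritic or erythroid marker has a row in the table. Their part in the results was not tested.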

How the data were processed

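Raw counts per gene, deposited by the authors, were used for 11 NK libraries and 3 sCAF libraries of tumour fibroblasts. Per the submitters' processing notes, bcl2fastq, STAR 2.4.2a and HTSeq were used with build mm10. Whether molecular identifiers were counted is not given in the sources used here. Genes were fitted in edgeR 4.0.16 under R 4.3.3 with filterByExpr, TMM scaling and a robust quasi-likelihood model over all 11 libraries. Total counts ran from 559688 to 1966963, and the limit that a count of 0 allows, 3 counts, lay at up to 4.62 CPM. Named members were the 5 largest changes in each direction among called genes with at least 10 counts on average, plus the P stalk, paralogs with their parents and Mdm2-binding members. Rpl32l and Rpl37rt were put with the paralogs after the table was seen. Alternatives were 4 other scalings, no filter, a GC offset, a replicate block, leaving out each library, each side of the spleen split, and DESeq2 1.42.0. Starts and transcript ends came from RefSeq GRCm38.p6 and GENCODE models. The fit was checked on simulated counts. The members and lists were chosen with earlier results of these data known. The labels do not say whether replicate numbers pair the samples. Among 55 pairs of libraries at most 6.71% of genes had equal counts. Values of 1 member are not reported here, and it is not drawn in the plots of all genes.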

Additional observations from a re-analysis of the deposited data

Results flagged for a closer look

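In groups of 4, 56 values were tested for a sample far from the others, and 3 stood out. Chance flags about 1 in 20. Rps2 was 464.2 CPM in tumour-bearing spleen replicate 1, against 10.13 to 23.68 in the other three. This flag was foreseeable, since Rps2 was set apart because its counts jumped between libraries. Rpl5 was 31.88 CPM in tumour replicate 2, against 22.82 to 23.77. The ratio of large to small subunit counts was 1.424 in tumour replicate 2, against 1.368 to 1.377. Outside the NK comparisons, the 3 sCAF libraries held 12.02% to 14.89% of counts on ribosomal protein genes.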

How the results depend on the processing

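Of 71 gene results tried under up to 21 alternatives, 15 were called, 4 kept their call under all of them, and 20 others gained a call in some setting. Of the 15 called, 0 changed sign. The scaling on the ribosomal total and the fit without the 2 libraries of lowest total were chosen after seeing the data. Against tumour-bearing spleens the number of higher members was 13 (15.8% of all genes higher), and 8 with upper-quartile scaling (12.9%). It was 22 with a GC offset (17.2%), 27 against side A (13.3%) and 3 scaled on the ribosomal total (7.05%). It was 22 without the 2 libraries of lowest total (14.5%), and 8 to 15 when 1 library was left out (12.6% to 15%). Lower members were 1 (1115 of 8471 genes), and 0 with the replicate block (1175 of 8471). There were 2 with the GC offset (1122 of 8471), 0 against side A (765 of 8955) and 2 against side B (1700 of 8544). On the ribosomal total 2 were lower (1868 of 8471), and by DESeq2 0 (952 of 8471). When 1 library was left out, 0 to 1 were lower (814 to 1251 genes). The median was 0.26 and became -0.0073 on the ribosomal total, which by construction sets it near 0. It was 0.07 against side B, 0.39 against side A, 0.16 with upper-quartile scaling, 0.14 with library totals and 0.18 to 0.34 when 1 library was left out. Against healthy spleens the higher members were 21, and 38 with the GC offset (18.1%), 60 against side A (10.4%), 6 on the ribosomal total (6.76%), and 13 to 40 when 1 library was left out: 13 without healthy replicate 1 (18%) or 2 (12.2%) and 40 without replicate 3 (13.3%). Lower members were 0 (1183 of 8471 genes), and 1 against side B (1639 of 8544) and 3 on the ribosomal total (2588 of 8471). The median moved from 0.43 to 0.90 against side A, 0.20 against side B, 0.24 with library totals, 0.24 without the 2 lowest libraries and -0.0144 on the ribosomal total, and ran from 0.20 (without healthy replicate 1) to 0.61 (without replicate 3) when 1 library was left out. Side A holds 1 healthy library, assumed to vary like the others. Between the spleens, 9 members were called higher with the side as a block (5.35% of all genes). The median of 0.17 became -0.0098 on the ribosomal total, -0.0127 without the 2 lowest libraries and ran from -0.0129 to 0.36 when 1 library was left out, negative without healthy replicate 1. The cause of these changes was not tested. A replicate block gave 18 higher against tumour-bearing spleens (17.1% of all genes) and 20 against healthy (17.3%). Between samples of the same replicate number, the correlations of deviations were -0.04, 0.28, 0.01 and 0.22. Of the 4 tumour libraries, 2 correlated best with their own number. So few values cannot decide whether the numbers pair the samples.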
